A study of Beta vulgaris subsp. vulgaris with 30 samples.

Results

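Shoots of sugar beet seedlings that had stood in dilute ethanol before a freezing treatment were set against shoots of seedlings that had stood in water before the same treatment. All genes were compared between 6 libraries labelled ethanol and freezing and 6 labelled water and freezing, 12 of the 30 libraries of the series, called frozen ethanol and frozen water libraries here. Per the series text, pots of 7-day-old seedlings stood in 80 mM ethanol for 3 days and were then kept overnight at -2.1 to -3.5 °C, while the protocol fields of the single samples speak of Arabidopsis at 14 days of age, of 6 days in 20 mM ethanol and of -4.0 °C. Sample labels give the pretreatment as 3 days and put 2 h next to freezing, without saying when the 2 h began. The other libraries used here are 6 of shoots after ethanol and 6 of shoots after water, neither frozen, and 6 of shoots before pretreatment. All groups grew in soil at 22 °C with 16 h of light. The subspecies is labelled Beta vulgaris subsp. vulgaris with no cultivar. The labels name no separate cultures or pots for the replicates, so the p-values measure the spread between these libraries, which may be technical.

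Freezing injures leaf cells through ice outside the cells, which draws water out of them and strains their membranes. In Arabidopsis, cold is followed within hours by a wide change of the transcriptome that includes genes of transcription factors, protective proteins and sugar metabolism. Plants convert ethanol to acetaldehyde and acetate by alcohol and aldehyde dehydrogenases, and ethanol given before a stress is used as a priming treatment in several plant species.

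The deposited table holds 21587 genes, and 14128 of them passed a filter on low counts and were tested. Total counts ran from 7958897 to 17868082 in the frozen ethanol libraries and from 6632495 to 15893565 in the frozen water libraries, and did not differ past the threshold in an exact 2-sided permutation test of their log10 totals (p = 0.589, n = 6 each). Genes with at least 1 read numbered 14200 to 15510 in frozen ethanol and 13625 to 15163 in frozen water. On the principal components of the 12 libraries, frozen water library 6 stood apart on the first (score 120.4, all others -24.4 to 2.90; 12.98% of the variance) and frozen water library 4 on the second (score -119.2, all others 2.05 to 26.2; 12.24%). Results are therefore also given without them. Among the 5406 genes that averaged 10 CPM or more (counts scaled to library size), the median SD between libraries was 0.319 in frozen ethanol and 0.349 in frozen water on the log2(CPM + 1) scale, and frozen water gave 0.307 without libraries 4 and 6. No annotation of gene function was used, so the shoot label was not checked against marker genes. In such bulk samples, fewer cells of a type and less RNA per cell cannot be told apart.

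Few genes separated the 2 frozen groups. Of the 14128 genes, 3 were higher and 12 lower in frozen ethanol than in frozen water (0.0212% and 0.0849% of those tested, 0.106% in all) at an adjusted p under 0.05 by the quasi-likelihood test of edgeR, with p adjusted after Benjamini and Hochberg. An unadjusted p under 0.05 was met by 266 higher and 233 lower genes, 3.53% of those tested. The 12 lower genes differed by 1.95-fold to 3.57-fold, with a median of 2.50-fold. The 3 higher genes differed by far more, or were scarce. The estimates were precise only for well-expressed genes: the median standard error of a log2 change was 0.43 over all tested genes and 0.22 over the 5406 genes of at least 10 CPM. In that second set, 12 genes had a fitted change of at least 2-fold upward and 26 downward, called or not.

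**Figure D1:**
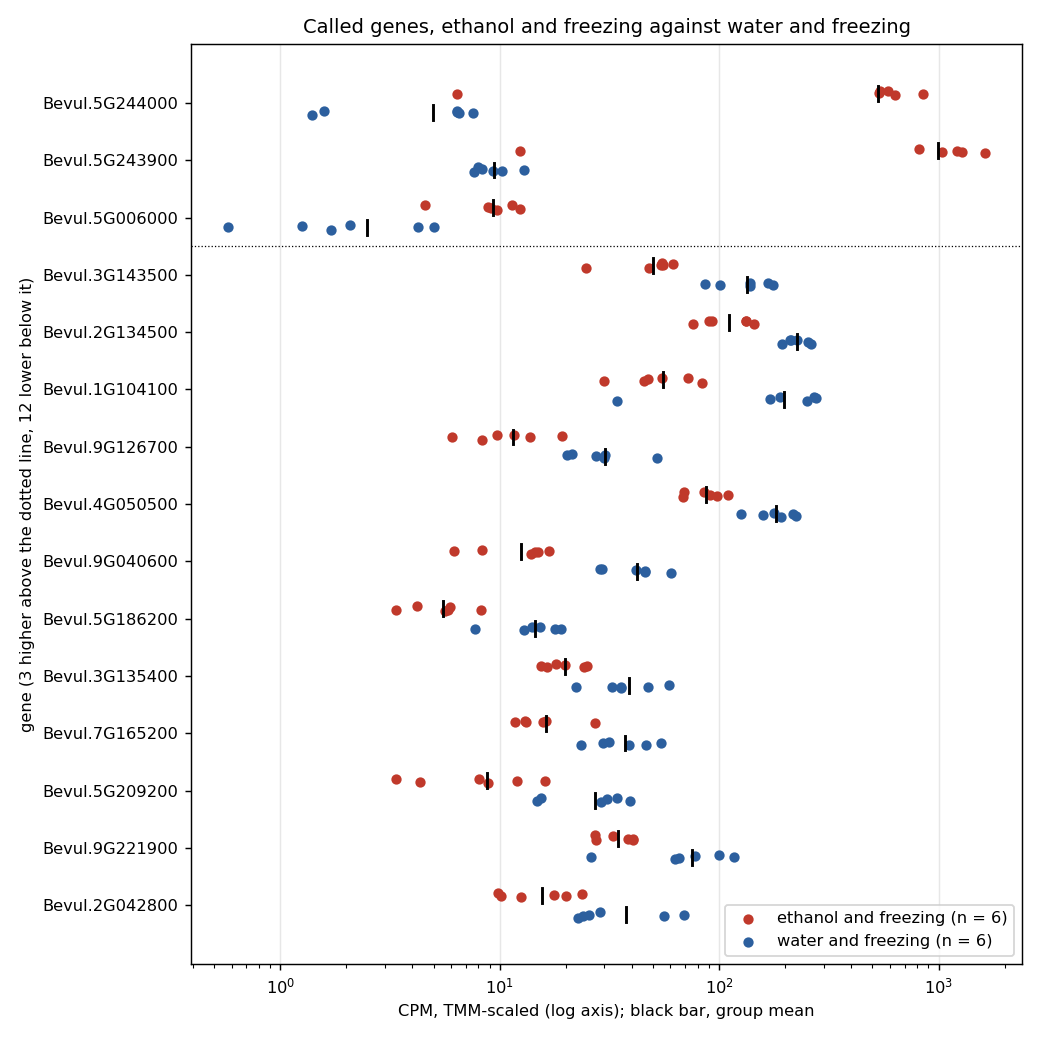
CPM (log axis) of the 15 called genes in each of the 6 frozen ethanol and 6 frozen water libraries, 1 point a library, with bars at the group means. The 2 groups do not overlap in 5 of the 12 lower genes and in none of the 3 higher genes.

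The higher genes were a pair of neighbours on chromosome 5 and 1 gene at the other end of that chromosome. None of the 3 has a gene symbol in the RefSeq annotation, so no role is given. Coordinates are on the beet assembly EL10.2, as the table gives them. Bevul.5G243900 (chromosome 5, 65696005 to 65696294, plus strand) and Bevul.5G244000 (65699448 to 65700019, plus strand) are short gene models of 290 and 572 bp, 3153 bp apart. The first overlaps the RefSeq locus LOC104894619 over too small a part to be paired with it, and the second overlaps no RefSeq gene.

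Bevul.5G243900 held 1037, 814, 1282, 1210, 1623 and 12.3 CPM in frozen ethanol libraries 1 to 6, against 7.63, 9.32, 8.32, 10.23, 12.9 and 7.93 CPM in frozen water libraries 1 to 6. Bevul.5G244000 held 538, 543, 634, 588, 854 and 6.41 CPM in frozen ethanol, against 1.58, 6.54, 6.39, 1.4, 6.41 and 7.54 CPM in frozen water. In both genes 5 frozen ethanol libraries stood high and the sixth lay among the frozen water libraries. For Bevul.5G243900 the means were 997 ± 552 CPM in frozen ethanol and 9.39 ± 1.97 CPM in frozen water (SD, n = 6 each; log2 change 6.73 ± 1.29 SE; adjusted p = 0.0132 by edgeR). For Bevul.5G244000 they were 527 ± 281 CPM in frozen ethanol and 4.98 ± 2.73 CPM in frozen water (log2 change 6.73 ± 1.23 SE; adjusted p = 0.0103 by edgeR). Each mean of the frozen ethanol group is thus an average over 2 separate levels.

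The same 2 levels were present outside the frozen libraries. At least 100 CPM of both genes was found in 5 of 6 frozen ethanol libraries and 0 of 6 frozen water libraries, in 5 of 6 ethanol libraries and 3 of 6 water libraries without freezing, and in 2 of 6 libraries before pretreatment. Over the 30 libraries the same 15 were high for both genes, and no library lay between the levels: Bevul.5G243900 was at 528 CPM or more in the high ones and at 12.9 CPM or less in the low ones. Shoots not yet pretreated thus differed among themselves in the same way. Before freezing, the ethanol and water groups did not differ past the threshold in either gene (log2 change 0.88 ± 1.00 SE for Bevul.5G243900, 0.79 ± 0.95 SE for Bevul.5G244000; adjusted p = 1 for both by edgeR). The difference between the freezing responses after ethanol and after water was 5.85 ± 1.53 SE for the first (adjusted p = 0.995 by edgeR) and 5.94 ± 1.47 SE for the second (adjusted p = 0.925 by edgeR). Freezing after ethanol gave a log2 change of 0.44 ± 0.99 SE for Bevul.5G243900 (adjusted p = 0.877 by edgeR). For Bevul.5G244000 it was 0.84 ± 0.95 SE (adjusted p = 0.698 by edgeR). Freezing after water gave -5.40 ± 1.21 SE for the first gene (adjusted p = 0.00177 by edgeR). The second gave -5.10 ± 1.15 SE after water (adjusted p = 0.00188 by edgeR). Of all tested genes, 6.09% were called lower with freezing after water. In both genes this sets 3 of 6 high water libraries against 0 of 6 high frozen water libraries. The freezing comparisons, and the difference between them, use the same frozen libraries as the comparison that named the pair. These p-values come from a fit of single group means to genes with 2 levels, so they do not measure how often a library is high. What makes a library high was not tested.

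**Figure D2:**
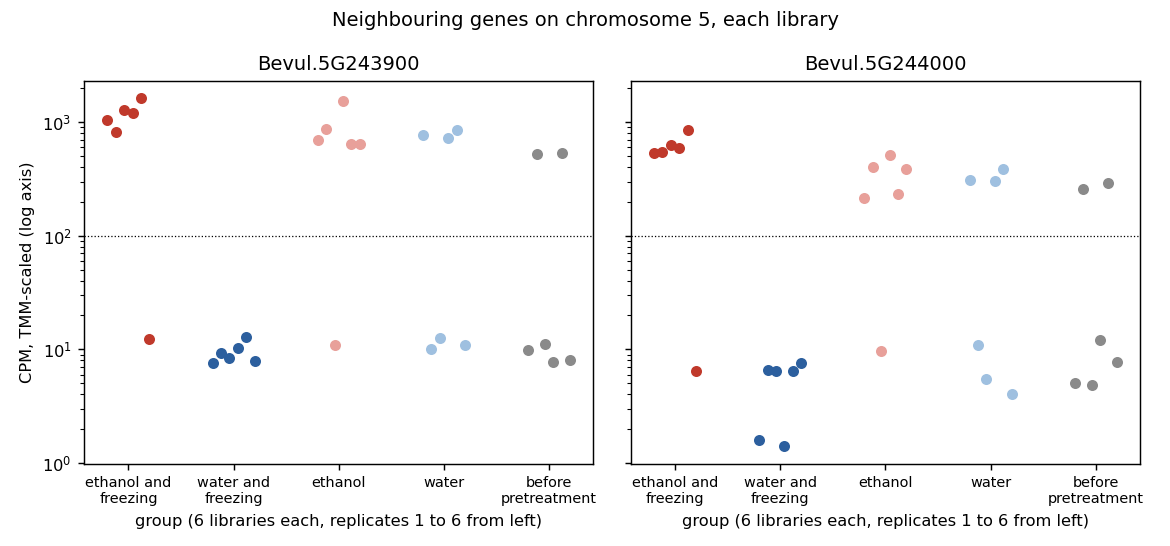
CPM (log axis) of Bevul.5G243900 and Bevul.5G244000 by group in all 30 libraries, 1 panel a gene and 1 point a library. Points are coloured by group, and dotted lines mark 100 CPM. The 15 high libraries have at least 216 CPM of Bevul.5G244000 and the 15 low ones at most 12.0 CPM.

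Bevul.5G006000 (chromosome 5, 838818 to 839681; RefSeq LOC104892044), the other higher gene, was scarce. It held 4.59, 8.88, 9.17, 12.4, 9.77 and 11.4 CPM in frozen ethanol, against 5.05, 1.7, 0.581, 1.26, 4.23 and 2.08 CPM in frozen water. Only frozen ethanol library 1 fell within the frozen water range. Its log2 change was 1.88 ± 0.40 SE (adjusted p = 0.035 by edgeR). Before freezing the ethanol libraries averaged 5.33 ± 1.82 CPM and the water libraries 6.27 ± 2.37 CPM (n = 6 each; log2 change -0.24 ± 0.39 SE, adjusted p = 1 by edgeR). It fell with freezing after water (log2 change -1.30 ± 0.40 SE, adjusted p = 0.0248 by edgeR) and had a log2 change of 0.82 ± 0.39 SE after ethanol (adjusted p = 0.189 by edgeR), but the test of the difference between these responses, 2.12 ± 0.55 SE, did not pass (adjusted p = 0.995 by edgeR). These freezing comparisons share the frozen libraries with the comparison that named the gene. Its call was lost in 9 of the 12 fits that each left out 1 frozen library.

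The 12 lower genes lie on 7 chromosomes, and 10 of them pair by position with a RefSeq locus that carries a number and no symbol, so no role is given to them either. They are described in 4 sets, formed after their values were seen, by what they did before freezing and with freezing. The values before freezing come from separate libraries that the frozen comparison did not use for its means.

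In the first set, 3 genes had every ethanol library below every water library both with and without freezing, though none passed the adjusted threshold without freezing: Bevul.2G134500, Bevul.4G050500 and Bevul.9G040600. Over all tested genes, frozen ethanol lay wholly below frozen water in 14 genes (0.0991%) and ethanol wholly below water before freezing in 24 (0.17%), and these 3 were the genes that did both. Ethanol lay wholly above water in 18 genes before freezing (0.127%), and in none of them in frozen shoots too.

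Bevul.2G134500 (chromosome 2, 40302164 to 40304949, plus strand; LOC104886547) held 76.4, 90.4, 132, 133, 144 and 92.4 CPM in frozen ethanol, against 194, 262, 227, 213, 211 and 255 CPM in frozen water. The highest frozen ethanol library was below the lowest frozen water library. The fitted log2 change was -1.03 ± 0.16 SE (adjusted p = 0.00145 by edgeR). Without freezing the ethanol libraries averaged 100.8 ± 16.8 CPM and the water libraries 177 ± 24.6 CPM (SD, n = 6 each; log2 change -0.82 ± 0.16 SE; adjusted p = 0.0758 by edgeR). Before pretreatment it held 86.7 ± 19.9 CPM, so the ethanol mean lay nearer to the start than the water mean did. Freezing itself gave log2 changes of 0.15 ± 0.16 SE after ethanol and 0.36 ± 0.16 SE after water, neither past the threshold (adjusted p = 0.682 and 0.171 by edgeR).

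Bevul.4G050500 (chromosome 4, 7990200 to 7990445, plus strand) is a model of 246 bp that touches a RefSeq long non-coding RNA, LOC104907246, and is not paired with it. It held 69.2, 68.4, 85.2, 98.3, 110.2 and 90.6 CPM in frozen ethanol, against 179, 223, 125.7, 191, 159 and 218 CPM in frozen water. The groups were apart, with frozen water library 3 the nearest to the ethanol values. This gave a log2 change of -1.07 ± 0.20 SE (adjusted p = 0.0131 by edgeR), and before freezing it was -0.90 ± 0.20 SE (80.8 ± 18.2 CPM after ethanol, 150.4 ± 35.3 CPM after water; adjusted p = 0.149 by edgeR). The start level was 73.3 ± 29 CPM. Without frozen water library 6 the adjusted p in the frozen libraries was 0.0585.

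Bevul.9G040600 (chromosome 9, 8298156 to 8302969, plus strand; LOC104902917) held 13.9, 6.17, 14.5, 8.34, 16.8 and 15 CPM in frozen ethanol, against 29.2, 42, 28.6, 46, 46 and 60.6 CPM in frozen water. All frozen water libraries were above all frozen ethanol libraries. The log2 change was -1.75 ± 0.33 SE (adjusted p = 0.0131 by edgeR), and before freezing it was -1.50 ± 0.33 SE (23.9 ± 8.19 CPM after ethanol, 67.7 ± 18.3 CPM after water; adjusted p = 0.142 by edgeR). The start level of 18 ± 10.6 CPM was again nearer to the ethanol value. The call in the frozen libraries was lost without frozen water library 6 (adjusted p = 0.0624) or frozen ethanol library 4 (adjusted p = 0.0577).

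In the second set, 2 genes fell with freezing after either pretreatment. Their ethanol means were also below their water means before freezing, without passing the adjusted threshold there. Bevul.5G186200 (chromosome 5, 56496169 to 56497924, plus strand; LOC104894028) held 4.18, 3.36, 5.82, 5.65, 8.25 and 5.92 CPM in frozen ethanol, against 14, 13, 19.1, 7.71, 15.2 and 17.9 CPM in frozen water. Frozen ethanol library 5 passed the lowest frozen water library, number 4. Its log2 change was -1.38 ± 0.28 SE (adjusted p = 0.0255 by edgeR), and before freezing, at 19.1 ± 6.95 CPM after ethanol and 40.6 ± 14 CPM after water, it was -1.10 ± 0.27 SE (adjusted p = 0.377 by edgeR). It fell with freezing after both, with log2 changes of -1.76 ± 0.28 SE after ethanol and -1.48 ± 0.27 SE after water (adjusted p = 1.59e-05 and 0.000147 by edgeR).

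Bevul.3G135400 (chromosome 3, 25544419 to 25545606, plus strand; LOC104906783) held 15.5, 18.1, 19.8, 16.4, 25 and 24.3 CPM in frozen ethanol, against 35.8, 32.3, 22.4, 35.6, 47.2 and 59.3 CPM in frozen water. Frozen water library 3 lay within the frozen ethanol range and the other 5 above it. The fitted log2 change was -0.96 ± 0.19 SE (adjusted p = 0.0255 by edgeR), and before freezing it was -0.79 ± 0.19 SE, with no overlap between 51.6 ± 11 CPM after ethanol and 88.9 ± 7.98 CPM after water (adjusted p = 0.377 by edgeR). It fell with freezing, by log2 changes of -1.37 ± 0.20 SE after ethanol and -1.20 ± 0.19 SE after water (adjusted p = 2.81e-06 and 2.22e-05 by edgeR). Before pretreatment it held 27.8 ± 7.36 CPM.

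In the third set, 4 genes fell with freezing after ethanol, while their freezing response after water did not pass the threshold: Bevul.3G143500, Bevul.9G126700, Bevul.7G165200 and Bevul.2G042800. The difference between these responses did not pass in any of them (adjusted p = 1 by edgeR in each), so a different freezing response is not shown.

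Bevul.3G143500 (chromosome 3, 30408455 to 30412085, minus strand; LOC104907951) had the lowest p of the comparison. It held 24.9, 54.2, 55.2, 48.1, 61.4 and 55.1 CPM in frozen ethanol, against 86.6, 138, 138, 176, 100.9 and 167 CPM in frozen water. The groups were apart, and frozen ethanol library 1 lay well below its own group. This gave a log2 change of -1.43 ± 0.19 SE (adjusted p = 0.000156 by edgeR), and before freezing it was -0.52 ± 0.19 SE (97.4 ± 13.1 CPM after ethanol, 139 ± 38.6 CPM after water; unadjusted p = 0.0102, adjusted p = 1 by edgeR). The start level was 174 ± 30.7 CPM. Freezing after ethanol gave -0.96 ± 0.19 SE (adjusted p = 0.000398 by edgeR) and freezing after water gave -0.05 ± 0.19 SE (adjusted p = 0.932 by edgeR); the difference was -0.91 ± 0.27 SE.

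Bevul.9G126700 (chromosome 9, 41694342 to 41696047, plus strand; it overlaps LOC104903851) held 9.68, 6.06, 13.8, 8.34, 19.3 and 11.6 CPM in frozen ethanol, against 20.2, 21.3, 27.5, 30, 30.2 and 51.9 CPM in frozen water. The groups were apart by a narrow gap between frozen ethanol library 5 and frozen water library 1. The log2 change was -1.39 ± 0.24 SE (adjusted p = 0.0064 by edgeR), and before freezing it was -0.56 ± 0.24 SE (29.4 ± 5.2 CPM after ethanol, 43 ± 9.01 CPM after water; unadjusted p = 0.0247, adjusted p = 1 by edgeR). Freezing gave -1.34 ± 0.24 SE after ethanol (adjusted p = 0.000108 by edgeR) and -0.52 ± 0.24 SE after water (adjusted p = 0.19 by edgeR).

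Bevul.7G165200 (chromosome 7, 52394361 to 52397081, plus strand; LOC104899711) held 16.2, 11.8, 13.2, 15.8, 27.1 and 13.1 CPM in frozen ethanol, against 31.4, 54.1, 23.4, 29.6, 46.6 and 38.9 CPM in frozen water. Frozen ethanol library 5 alone reached the frozen water range. Its log2 change was -1.20 ± 0.24 SE (adjusted p = 0.0255 by edgeR), and before freezing it was -0.57 ± 0.24 SE (29 ± 8.36 CPM after ethanol, 42.9 ± 11.8 CPM after water; unadjusted p = 0.0235, adjusted p = 1 by edgeR). Freezing gave -0.83 ± 0.24 SE after ethanol (adjusted p = 0.0187 by edgeR) and -0.20 ± 0.24 SE after water (adjusted p = 0.734 by edgeR).

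Bevul.2G042800 (chromosome 2, 6831027 to 6832510, plus strand; LOC104887527) held 12.5, 9.85, 23.7, 20, 17.7 and 10.1 CPM in frozen ethanol, against 24.1, 25.6, 22.7, 68.9, 28.8 and 56.3 CPM in frozen water. The 2 high values are those of libraries 4 and 6, which stand apart on the principal components. With all libraries the log2 change was -1.26 ± 0.27 SE (adjusted p = 0.0366 by edgeR), and without libraries 4 and 6 it was -0.69 (adjusted p = 1 by edgeR). Before freezing the pretreatments did not differ past the threshold (42 ± 10.6 CPM after ethanol, 44.7 ± 11.8 CPM after water; log2 change -0.08 ± 0.26 SE; adjusted p = 1 by edgeR). Freezing gave -1.43 ± 0.27 SE after ethanol (adjusted p = 0.00019 by edgeR) and -0.25 ± 0.26 SE after water (adjusted p = 0.688 by edgeR).

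In the fourth set, 3 genes had no freezing response past the threshold after either pretreatment. The first set had none either, but here the groups overlapped before freezing. Freezing after ethanol gave log2 changes of -0.76 (Bevul.1G104100), -0.28 (Bevul.9G221900) and -0.84 (Bevul.5G209200), with adjusted p of 0.0966, 0.566 and 0.0991 by edgeR. After water they were 0.53, 0.36 and 0.18 (adjusted p = 0.323, 0.409 and 0.839 by edgeR). Bevul.7G165200 of the third set had -0.83 after ethanol, so the threshold alone divides genes with changes of like size. Bevul.1G104100 (chromosome 1, 47578955 to 47579917, plus strand; LOC104892013) had the largest fold of the lower genes. It held 45.3, 83.8, 47.2, 72, 55 and 29.9 CPM in frozen ethanol, against 34.3, 275, 270, 189, 251 and 170 CPM in frozen water. Frozen water library 1 lay among the frozen ethanol libraries and the other 5 far above them. The fitted log2 change was -1.84 ± 0.31 SE (adjusted p = 0.00339 by edgeR), and before freezing it was -0.54 ± 0.30 SE (94.2 ± 23.6 CPM after ethanol, 137 ± 51.6 CPM after water; unadjusted p = 0.0765, adjusted p = 1 by edgeR).

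Bevul.9G221900 (chromosome 9, 53975586 to 53978759, minus strand; LOC104904833) held 27.6, 40.6, 40.4, 32.7, 38.3 and 27.2 CPM in frozen ethanol, against 26.1, 77.9, 117.5, 62.9, 65.7 and 99.6 CPM in frozen water. Here too frozen water library 1 was low, below every frozen ethanol library. This gave a log2 change of -1.12 ± 0.23 SE (adjusted p = 0.0287 by edgeR), and before freezing it was -0.48 ± 0.23 SE (41.9 ± 8.49 CPM after ethanol, 58.3 ± 15.3 CPM after water; unadjusted p = 0.0433, adjusted p = 1 by edgeR).

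Bevul.5G209200 (chromosome 5, 60968908 to 60969507, minus strand; LOC104894244) held 12, 3.36, 4.31, 8.06, 16.1 and 8.85 CPM in frozen ethanol, against 34.3, 39.1, 14.8, 15.4, 29 and 30.7 CPM in frozen water. Frozen ethanol library 5 lay just above the 2 lowest frozen water libraries. The log2 change was -1.62 ± 0.33 SE (adjusted p = 0.0263 by edgeR), and before freezing it was -0.60 ± 0.33 SE (15.9 ± 3.06 CPM after ethanol, 24 ± 9.48 CPM after water; unadjusted p = 0.0727, adjusted p = 1 by edgeR).

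**Figure D3:**
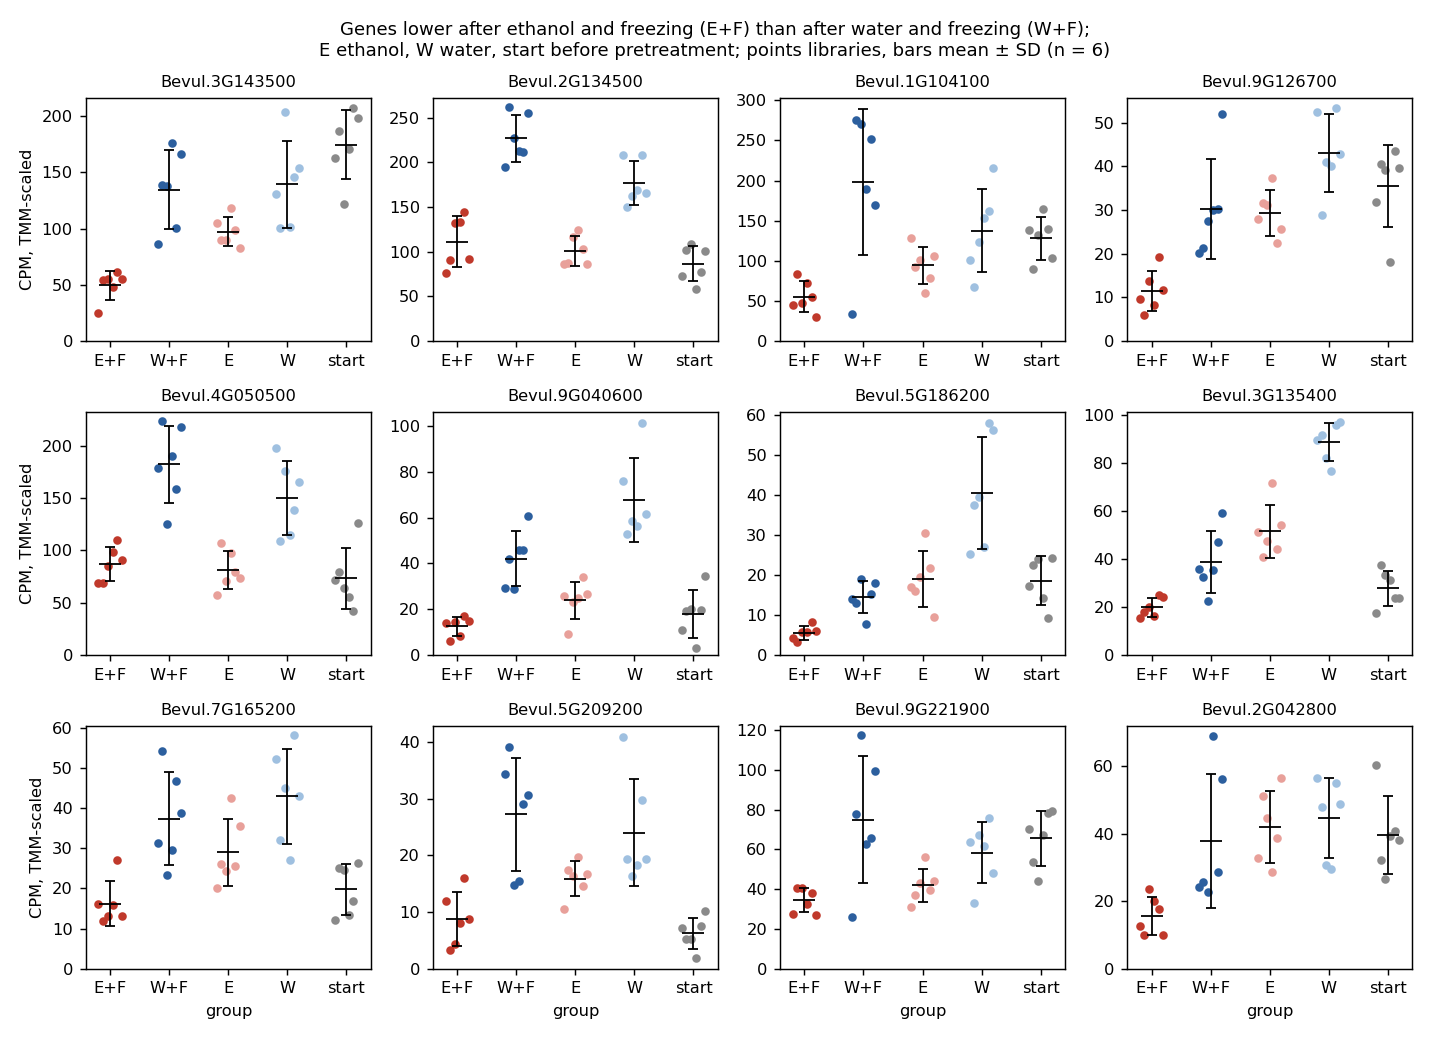
CPM (linear axis) of the 12 lower genes in the 5 groups, 1 point a library, with bars at the group mean ± SD. Ethanol means lie below water means both with and without freezing in all 12 genes, and frozen ethanol has the lowest mean of the 5 groups in 9. The genes were named for low frozen ethanol values against frozen water, which bears on both counts. The share for the 9 over all tested genes was not counted.

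Seen across the 12 lower genes, the direction was shared by the libraries that were never frozen. All 12 had a negative log2 change between ethanol and water before freezing, against 49.6% of all tested genes, and 9 had an unadjusted p under 0.05, against 2.05% of all tested genes. None passed the adjusted threshold there, where edgeR called 0 genes higher and 1 lower (0.00708% of those tested), with 558 at an unadjusted p under 0.05 (3.95%). The frozen and unfrozen comparisons share 1 estimate of the spread of each gene, and all 12 average at least 10 CPM. The 2.05% includes scarce genes, so the 2 shares of low p are not like for like. The median change of the 12 was -0.59 before freezing, against 0.0026 over all tested genes. The water mean exceeded the mean before pretreatment in 10 of the 12, with no overlap in 6, whereas ethanol lay wholly above the start in 2. The ethanol mean was nearer to the start than the water mean in 9. Shares over all tested genes are not given for these counts against the start, so they are not read as particular to the 12. With freezing, 6 of the 12 fell after ethanol (6.53% of all tested genes fell) and 2 fell after water (6.09% of all tested genes fell); these 2 counts share the frozen libraries with the comparison that named the genes. By edgeR the difference between the 2 freezing responses passed in no gene of the table, with 406 at an unadjusted p under 0.05 (2.87%).

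Over the whole transcriptome the 2 ethanol comparisons resembled each other weakly. They share no library. Across the 5406 genes of at least 10 CPM the log2 changes in frozen and unfrozen shoots had a Pearson r of 0.160 and a Spearman rho of 0.106, given as a description since genes are not independent replicates. The sign was the same in 53.6% of these genes. Among the 304 with an unadjusted p under 0.05 in the frozen libraries it was the same in 209, or 68.8%. Over all 14128 tested genes, including scarce ones, r was 0.045 and the sign was the same in 51.9%.

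**Figure D4:**
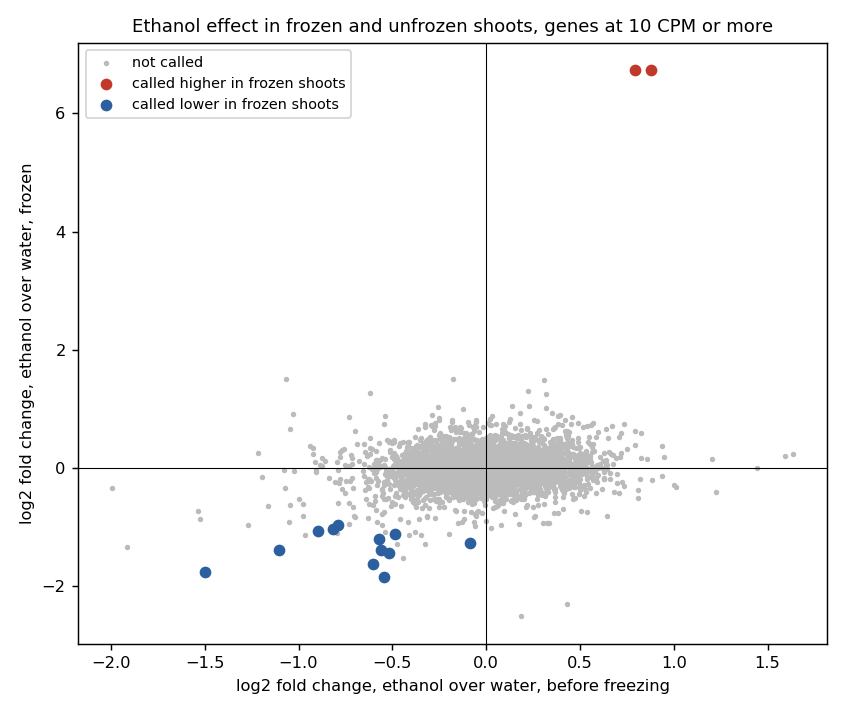
Log2 change of ethanol over water in frozen shoots against that in unfrozen shoots for the 5406 genes of at least 10 CPM, with the 14 called genes among them marked. The horizontal axis is the change before freezing and the vertical axis that in frozen shoots; all 12 lower genes lie below 0 and left of 0, and the whole cloud has a Pearson r of 0.160.

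Groups that did not overlap were found in more genes than were called. In 26 genes (0.184% of those tested) every frozen ethanol library was above every frozen water library, and in 14 (0.0991%) every one was below. Some genes separate wholly by chance in groups of this size. That share was not worked out here, so these counts are a description and not further calls. The 26 were mostly scarce, with a median of 5.10 CPM, and none passed the adjusted threshold. Their median log2 change was 1.15 in frozen and 0.14 in unfrozen shoots. The 14 had a median of 25.1 CPM, and 5 of them are among the called lower genes. Their median log2 change was -1.02 in frozen and -0.51 in unfrozen shoots. The sign was the same in both in 11 of the 14, the 5 called ones among them, and in 17 of the 26. Over all tested genes it was the same in 51.9%.

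The 5 genes with the lowest p outside the threshold show what lies just beyond it. Bevul.8G144000 held 9.61 ± 6.26 CPM in frozen ethanol and 0.625 ± 0.547 CPM in frozen water (SD, n = 6 each), that is 49 to 204 reads a library in frozen ethanol and 0 to 15 in frozen water, with the groups apart. Its log2 change was 3.93 ± 0.87 SE in frozen shoots (adjusted p = 0.0584 by edgeR) and 2.91 ± 0.94 SE in unfrozen shoots (unadjusted p = 0.00368, adjusted p = 1 by edgeR), where the ethanol libraries averaged 1.33 ± 0.918 CPM and the water libraries 0.194 ± 0.287 CPM. Bevul.7G180900 (LOC104899865) held 0.577 ± 0.453 CPM in frozen ethanol and 3.9 ± 1.16 CPM in frozen water, also apart (log2 change -2.74 ± 0.62 SE; adjusted p = 0.0662 by edgeR). The other three were more abundant and differed less. Bevul.9G074900 held 12.3 ± 3.55 CPM in frozen ethanol and 23.1 ± 7.24 CPM in frozen water (adjusted p = 0.0809 by edgeR). Bevul.8G027100 held 44 ± 14.6 CPM in frozen ethanol and 83 ± 12.6 CPM in frozen water, with the groups apart (adjusted p = 0.0856 by edgeR). Bevul.7G027700 stood higher in frozen ethanol, 63.6 ± 16.6 CPM in frozen ethanol and 37.5 ± 9.42 CPM in frozen water (adjusted p = 0.123 by edgeR). DESeq2 put all 5 under the threshold.

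The genes next to the called genes were looked at by position. Of 28 neighbours by position, 21 were tested and not themselves called. A log2 change below 0 was found in 14 of these 21 (48.7% of all tested genes), and 2 of the 21 had an unadjusted p under 0.05 (3.53% of all tested genes did). Bevul.4G050600, a model of 261 bp on the same strand as the called Bevul.4G050500, had a log2 change of -1.24 ± 0.32 SE (adjusted p = 0.183 by edgeR). Bevul.9G126800, 550 bp from Bevul.9G126700 on the opposite strand, had a log2 change of -1.19 ± 0.41 SE (adjusted p = 0.869 by edgeR). The called neighbours of chromosome 5 were the only adjacent pair among the 15. None of the 15 overlaps another gene model of the table.

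No gene with a symbol passed the test between the frozen groups. Of the 15 genes with a RefSeq symbol, all were tested, none was called and none had an unadjusted p under 0.05 (3.53% of all tested genes did). Their log2 changes ran from -0.62 to 1.00 with a median of 0.04, 10 of them above 0 (51.3% of all tested genes). For nr1, nitrate reductase, frozen ethanol held 126.2 ± 29.5 CPM and frozen water 134 ± 27.1 CPM (SD, n = 6 each; log2 change -0.09 ± 0.16 SE). For the vacuolar proton pump genes, BV-70/5 held 347 ± 32.9 CPM in frozen ethanol and 338 ± 26.3 CPM in frozen water (0.04 ± 0.09 SE), and BV-16/1 held 117.3 ± 13.1 CPM in frozen ethanol and 113.9 ± 11.6 CPM in frozen water (0.04 ± 0.13 SE).

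Sugar and starch genes had wider errors. SBSS1, sucrose synthase, held 39.7 ± 13.9 CPM in frozen ethanol and 31 ± 11.1 CPM in frozen water (log2 change 0.35 ± 0.25 SE). The sucrose transporter gene sut1 held 18.6 ± 3.5 CPM in frozen ethanol and 23.5 ± 9.81 CPM in frozen water (-0.33 ± 0.25 SE), and agpS1, of ADP-glucose pyrophosphorylase, held 16.3 ± 4.33 CPM in frozen ethanol and 22.4 ± 8.29 CPM in frozen water (-0.45 ± 0.26 SE). SBSPS1, sucrose-phosphate synthase, was scarce at 2.12 ± 1.45 CPM in frozen ethanol and 1.05 ± 0.809 CPM in frozen water (1.00 ± 1.05 SE). BTC1, a pseudo-response regulator that controls bolting in beet, held 44.8 ± 9.38 CPM in frozen ethanol and 44.2 ± 11.3 CPM in frozen water (0.02 ± 0.17 SE). PRR7, another such regulator, held 27.6 ± 5.74 CPM in frozen ethanol and 26.2 ± 8.42 CPM in frozen water (0.07 ± 0.28 SE). For the other symbols the log2 change was 0.27 ± 0.34 SE (areb1), 0.29 ± 0.48 SE (CENP-C), 0.36 ± 0.89 SE (BIN46), 0.55 ± 0.78 SE (Glu2), -0.07 ± 1.26 SE (BIN44) and -0.62 ± 0.75 SE (MYB12). The signs of BTC1, PRR7, BV-16/1, BV-70/5 and BIN44 turned when single libraries were left out.

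How far the calls rest on single libraries differed from gene to gene. Bevul.3G143500, Bevul.2G134500, Bevul.1G104100, Bevul.9G126700 and Bevul.5G244000 were called in each of the 12 fits that left out 1 frozen library, with adjusted p up to 0.00108, 0.00966, 0.0179, 0.0477 and 0.0477. Bevul.5G243900 lost its call without frozen water library 6 (adjusted p = 0.0624). Bevul.5G186200, Bevul.7G165200 and Bevul.9G221900 lost theirs in 8 of the 12, Bevul.5G209200 and Bevul.2G042800 in 7 and Bevul.3G135400 in 6, with adjusted p up to 0.1002, 0.0956, 0.137, 0.0879, 0.213 and 0.132. The sign of the log2 change was kept by all 15 in each of these fits. Lower genes numbered 4 without frozen water library 6, 21 without frozen water library 1, and 7, 7 and 6 without frozen ethanol libraries 1, 3 and 4. Higher genes numbered 6 without frozen water library 3 and 1 without frozen water library 6. Without frozen water libraries 4 and 6 together, 0 genes were higher and 4 lower, and 3 of these 4 were among the 15, namely Bevul.3G143500, Bevul.2G134500 and Bevul.1G104100. The other 12 kept their sign in that fit with adjusted p of 0.0533 to 1 by edgeR, and the chromosome 5 pair had log2 changes of 6.70 and 6.68 there (adjusted p = 0.184 for Bevul.5G243900 and 0.138 for Bevul.5G244000).

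**Figure D5:**
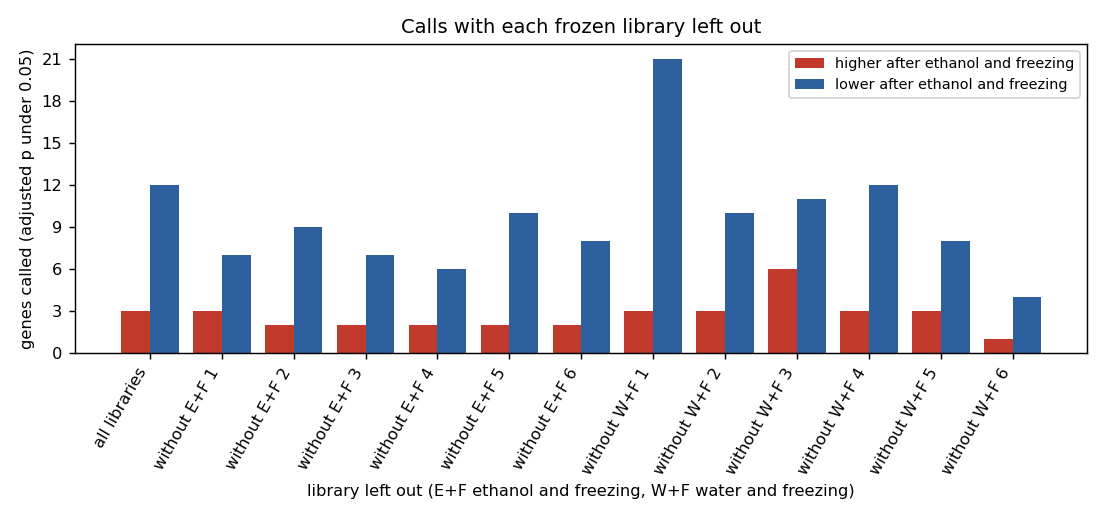
Number of genes called higher and lower by edgeR with all 12 frozen libraries and after leaving out each 1 of them. Lower genes range from 4 without frozen water library 6 to 21 without frozen water library 1, and higher genes from 1 to 6.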

How the data were processed

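The authors deposited a table of whole read counts per gene for 30 libraries, made by Lasy-Seq from 200 ng of total RNA per the labels' protocols; bcl2fastq, Trimmomatic, HISAT2, featureCounts and DESeq2 are named per the submitters' processing notes, without versions. The build named there is TAIR10, but per the file headers genes have beet identifiers and positions. A second deposited table was not used here.

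Counts were analysed with edgeR 4.0.16 in R 4.3.3: filterByExpr by group, TMM scaling, 5 group means fitted to all 30 libraries (square root of the common dispersion 0.593), quasi-likelihood F tests of contrasts on 2 sides, Benjamini-Hochberg adjustment and a threshold of 0.05. A standard error is the log2 change divided by the square root of F. CPM is scaled by TMM. The test of the main comparison was tried on counts simulated around a single mean per gene in each group. Genes with 2 levels and libraries that stand apart were not simulated. Alternatives were DESeq2 1.42.0, RLE scaling, no filter, 12 frozen libraries only, a replicate block and left-out libraries. Summaries used Python 3.11.15.

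Genes were paired with RefSeq genes of EL10.2 where each covered at least 0.5 of the other, which paired 16275 of 21587 (75.4%). Named were all called genes, the 5 next by p, genes with a symbol and neighbours of called genes. The comparison, lists and tests were chosen with earlier results of these data known. Lists resting on protein sequence were not run, since no protein table was used here. Counts without molecular identifiers are reads, not molecules.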

Additional observations from a re-analysis of the deposited data

Results flagged for a closer look

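Over 75 groups of 6 libraries, 5 for each called gene, 4 had 1 library farther from the rest than Dixon's test allows, and chance gives about 1 in 20. In frozen ethanol library 1, Bevul.3G143500 held 24.9 CPM, against 48.1 to 61.4 CPM in the other 5. In frozen ethanol library 5, Bevul.7G165200 held 27.1 CPM, against 11.8 to 16.2 CPM in the other 5. In frozen ethanol library 6, Bevul.5G244000 held 6.41 CPM, against 538 to 854 CPM in the other 5, and its neighbour Bevul.5G243900 was low in the same library. In frozen water library 6, Bevul.9G126700 held 51.9 CPM, against 20.2 to 30.2 CPM in the other 5.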

How the results depend on the processing

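All 15 called genes kept their sign in each of the 19 other settings, and 204 of the 285 combinations of gene and setting stayed under the threshold. Only 2 of the 15, Bevul.3G143500 and Bevul.2G134500, were called in every setting. Against 3 higher and 12 lower genes, DESeq2 called 11 and 25, among them all 15. A fit of the 12 frozen libraries only gave 3 higher and 4 lower, and 6 of these 7 were among the 15. It did not call Bevul.1G104100 (adjusted p = 0.0697 by edgeR) or Bevul.9G126700, which every fit that left out 1 frozen library called. Leaving out 1 library at a time gave 1 to 6 higher and 4 to 21 lower genes. Without frozen water libraries 4 and 6, a setting added after the data were seen, 0 were higher and 4 lower. RLE scaling gave 3 and 12, and no filter gave 3 and 13. The cause of these shifts was not tested. Before freezing, DESeq2 called 4 higher and 5 lower genes, against 0 and 1 by edgeR, and leaving out 1 library gave 0 to 2 lower. The difference of the freezing responses gave 0 genes in each setting run. The number of the 12 lower genes that were also lower in ethanol before freezing stayed at 12, or 11 without ethanol library 4. With the replicate number as a block, 2 genes were higher and 12 lower, 12 of these 14 among the 15. Deviations of same-numbered frozen libraries correlated at -0.029 to 0.054 over 6 pairs. Over frozen ethanol and frozen water libraries of any numbers, r ran from -0.054 to 0.063. Of the frozen ethanol libraries, 2 of 6 correlated best with their own number. Correlations this small cannot tell whether the numbers pair samples.

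Genes with log2 changes near 0 changed sign: without frozen water libraries 4 and 6, BTC1 (Bevul.2G112000) gave -0.034, PRR7 (Bevul.7G065600) -0.041 and BIN44 (Bevul.5G007400) 1.45. Leaving out 1 library gave -0.074 to 0.16 for BTC1, -0.065 to 0.16 for PRR7, -0.77 to 0.68 for BIN44, -0.0094 to 0.088 for BV-16/1 (Bevul.1G174400) and -0.0035 to 0.072 for BV-70/5 (Bevul.2G111200). The median standard error was 0.43 over all tested genes and 0.14 at 100 CPM or more, and the part of depth in this was not tested.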

Other observations

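The neighbouring genes Bevul.5G243900 and Bevul.5G244000, described here beyond their difference after their values were seen, had a Pearson r of 0.984 across the 30 libraries, which fall into 15 high and 15 low ones, so the r describes that split. Among the high libraries the ratio of Bevul.5G244000 to Bevul.5G243900 ran from 0.311 to 0.667 with a median of 0.486, and among the low ones from 0.137 to 1.55 with a median of 0.52. The gene most like them by r was Bevul.9G105100, at 0.714. In the 12 lower genes the highest frozen ethanol library was library 5 in 9 and the lowest was library 2 in 7. The lowest frozen water library was library 3 in 6 and library 1 in 5. How often these libraries were highest or lowest over all tested genes was not counted.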
